A study of Mus musculus with 8 samples.

Results

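The expression of 6 genes of one cell-surface pathway was followed through single hematopoietic stem cells (HSCs) of the mouse: Itgam, Itgb2, Tyrobp, Fcer1g, Syk and Hcst. They were taken by name, with earlier results of these cells known, and all 6 were among the 10720 genes in the table of 586 cells. The cells came from bone marrow of adult C57BL/6 mice, were sorted as lineage-negative Sca-1+ Kit+ cells that were CD150+, CD34- and CD48-, and were picked by hand. Cells labelled KO came from Mx1-cre+ Med23 L/L mice, in which poly(I:C) induces Cre in blood-forming and other interferon-responsive cells. Cells labelled WT came from mice labelled wild type, which the study describes as Mx1-cre- Med23 L/L littermates. The study describes poly(I:C) for WT and KO mice in its blood counts, and does not say so separately for the mice that gave the single cells. There were 4 libraries per label, but the cells carry only a genotype and a cell number, so each label was 1 pool with no replicate and no comparison between the labels was tested.

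CD11b, encoded by Itgam, is an integrin alpha chain that reaches the cell surface only when paired with CD18, the beta2 chain encoded by Itgb2. The pair, known as Mac-1 or complement receptor 3, binds ICAM proteins and complement fragments and is a standard surface mark of neutrophils, monocytes and macrophages. Tyrobp (DAP12) and Fcer1g (the Fc receptor gamma chain) are short transmembrane adapters that carry an immunoreceptor tyrosine-based activation motif, or ITAM. Src family kinases phosphorylate the ITAM, the tyrosine kinase Syk docks on it and passes the signal on, and in myeloid cells integrins of the beta2 family use the same adapters. Hcst (DAP10) is a related adapter without an ITAM that recruits phosphatidylinositol 3-kinase.

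Unique molecular identifiers (UMIs), each standing for one captured transcript, were recovered from the deposited log2 values. Cells with at least 2000 genes and 20000 UMIs were kept, which left 259 of 304 cells labelled WT and 234 of 282 labelled KO, with medians of 59649 and 50281 UMIs. Kit was detected in 73.7% and 59.0% of them and Meis1 in 88.8% and 94.4% after each cell was thinned at random to 20000 UMIs, in the order WT, KO. Slamf1, which encodes CD150, was detected in 24.7% and 6.84%. The whole set of 20 HSC markers is summarised with the other marker lists below. Med23 itself had 122 UMIs in the cells labelled WT and 117 in those labelled KO, a log2 ratio of 0.35 with an interval from -0.03 to 0.73. The deleted stretch of Med23 and the counted 3' ends were not compared, so this value does not check the labels, and the pools are called by their labels throughout. A group of kept cells carried more than 1000 CPM (UMIs per 1000000 UMIs) of oocyte genes, 59 of those labelled WT and 1 of those labelled KO, and member values without them are given beside the results they touch.

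Levels are UMIs of a gene per 1000000 UMIs of the pool, written as CPM. Ratios are KO over WT on the log2 scale, with 95% intervals that cover counting error only, not differences between animals, libraries or cells. All 6 genes were higher in the pool labelled KO, with intervals above no difference, and 4 of them, Itgam, Tyrobp, Fcer1g and Hcst, were at least 2-fold higher. Of all genes, 6.98% were at least 2-fold higher with an interval above 1 and 39.2% had an interval above 1 at any size, while 35.7% had one below 1, as 0 of the 6 did. The members were chosen with this contrast in view, so the counts describe them and support nothing. The median log2 ratio was 1.22 over the 6 genes and 0.02 over all genes. Without the cells rich in oocyte transcripts these 4 genes were still at least 2-fold higher, Hcst at 1.09 and Fcer1g at 1.07 on the log2 scale. Itgb2 and Syk lay just inside 2-fold, at 1.95-fold and 1.90-fold.

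**Figure D1:**
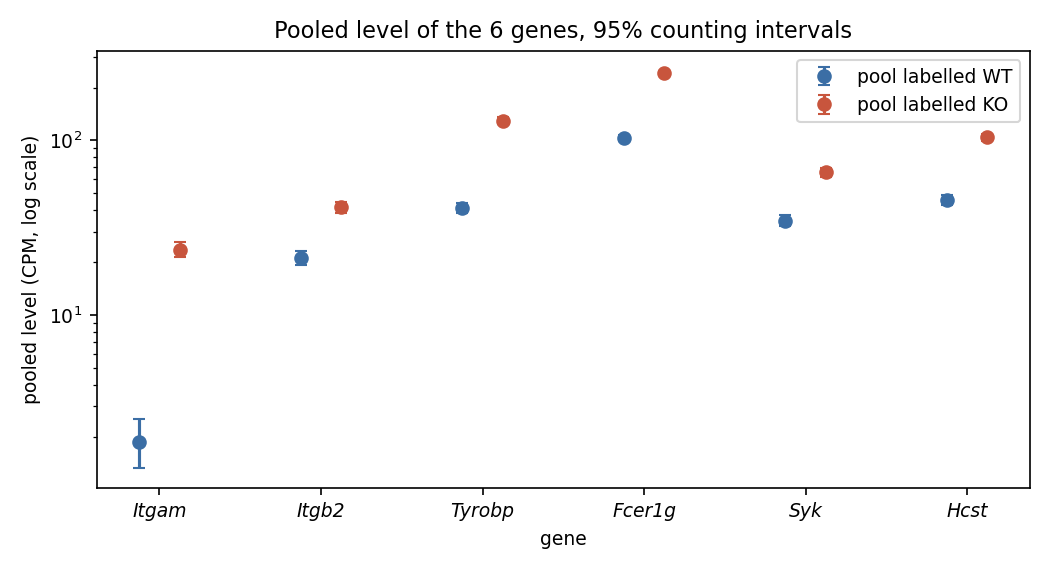
Pooled level of each gene in CPM on a log axis, for the pools labelled WT (blue) and KO (red), with 95% Poisson intervals. All 6 points lie higher in the pool labelled KO, and the gap is widest for Itgam, at 1.86 against 23.7 CPM.

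Promoter sequence was available for Itgam, Fcer1g, Hcst and Syk, and no link between it and the levels was tested. PU.1, encoded by Spi1, is a myeloid factor of the ETS family, whose sites contain a GGAA core. The 100 bases before the annotated start (RefSeq, GRCm38.p6, whereas the counts were made on mm9) are written 5' to 3' on the gene's strand, with AGGAAG in capitals.
Itgam promoter (chr7:128062540-128062639, plus strand): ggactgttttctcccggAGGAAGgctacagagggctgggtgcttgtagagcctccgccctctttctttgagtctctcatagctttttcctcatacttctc
Fcer1g promoter (chr1:171234350-171234449, minus strand): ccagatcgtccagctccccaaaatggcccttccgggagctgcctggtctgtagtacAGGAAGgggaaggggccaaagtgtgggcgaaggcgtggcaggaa
Hcst promoter (chr7:30419855-30419954, minus strand): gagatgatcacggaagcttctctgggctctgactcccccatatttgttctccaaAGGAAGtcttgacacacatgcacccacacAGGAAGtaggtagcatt
AGGAAG occurred once for Itgam, starting 83 bases before the start, once for Fcer1g at 44 bases, and at 46 and 17 bases for Hcst. Neither of the 2 Syk windows held AGGAAG or its reverse complement CTTCCT. Of 32851 windows of the same length, 13.8% held it on either strand. These are letters in a window and not sites of binding. Spi1 had 174 CPM in the pool labelled WT and 274 CPM in that labelled KO, a log2 ratio of 0.66.

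Itgam showed the largest ratio of pooled CPM among the 6 genes. It had 40 UMIs in the cells labelled WT (1.86 CPM, interval 1.33 to 2.54) and 384 in those labelled KO (23.7 CPM, interval 21.4 to 26.2). The log2 ratio was 3.67 (3.20 to 4.18), above 99.8% of all genes in the table. The authors kept genes by their average count over the cells of both labels. A gene as rare under WT as Itgam could enter this ranking only with a higher average count under KO. Itgam was also chosen with this contrast in view, so the rank describes it and supports nothing. Under the label WT, 10 of 259 cells held a UMI, and these held between 1 and 23, with a median of 1. Under the label KO, 64 of 234 cells held between 1 and 53, with a median of 2. A single cell carried 57.5% of the Itgam UMIs labelled WT, while the top cell labelled KO carried 13.8%. Without the top cell of each label, 17 and 331 UMIs remained and the log2 ratio was 4.69. Without the cells rich in oocyte transcripts it was 3.31, from 39 and 379 UMIs. In the GENCODE annotation Itgam overlaps another gene model on the same strand, Gm49368, and how shared reads were assigned is not given in the sources used here.

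Itgb2, the partner chain, was present in both pools. It had 455 UMIs labelled WT (21.2 CPM) and 669 labelled KO (41.3 CPM), a log2 ratio of 0.96 (0.79 to 1.14). Positive cells held a median of 2 UMIs, with a highest of 37, under the label WT, and a median of 3, with a highest of 47, under KO. On the log2 scale the ratio was 0.81 without the cells rich in oocyte transcripts and 0.31 when the authors' normalized values were averaged over cells. CD18 transcripts were spread over many cells of both labels, whereas CD11b transcripts were rare under WT.

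Tyrobp had 886 UMIs labelled WT (41.3 CPM) and 2100 labelled KO (130 CPM, interval 124 to 135), a log2 ratio of 1.65 (1.54 to 1.77). Positive cells held between 1 and 275 UMIs, with a median of 1.5, under WT and between 1 and 132, with a median of 5.5, under KO. In the WT pool 1 cell held 31.0% of the UMIs and the top 10 cells held 80.4%, compared with 6.29% and 38.1% in the KO pool. Without the top cell of each pool the log2 ratio was 2.08, and without the cells rich in oocyte transcripts it was 1.52.

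Fcer1g was the most often detected adapter in both pools. It had 2220 UMIs labelled WT (103 CPM) and 3939 labelled KO (243 CPM), a log2 ratio of 1.24 (1.16 to 1.31). The median over all cells, those without a UMI included, was 9.31 CPM under WT and 139 CPM under KO. Positive cells held a median of 3 UMIs and at most 171 under WT, and a median of 10 and at most 188 under KO. The log2 ratio without the cells rich in oocyte transcripts was 1.07.

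Hcst, the adapter without an ITAM, had 976 UMIs labelled WT (45.4 CPM) and 1684 labelled KO (104 CPM), a log2 ratio of 1.20 (1.08 to 1.31). Positive cells held a median of 3 UMIs and at most 76 under WT, and a median of 6 and at most 190 under KO. Hcst and Tyrobp are neighbours that are transcribed towards each other, and whether the counting used strand is not given in the sources used here. In the GENCODE annotation their gene bodies do not overlap.

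Syk, the kinase that docks on the adapters, had 743 UMIs labelled WT (34.6 CPM) and 1066 labelled KO (65.9 CPM), a log2 ratio of 0.93 (0.79 to 1.07). Positive cells held a median of 3 UMIs and at most 125 under WT, and a median of 4 and at most 67 under KO. The log2 ratio was 0.78 without the cells rich in oocyte transcripts and 0.56 with the authors' normalized values.

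**Figure D2:**
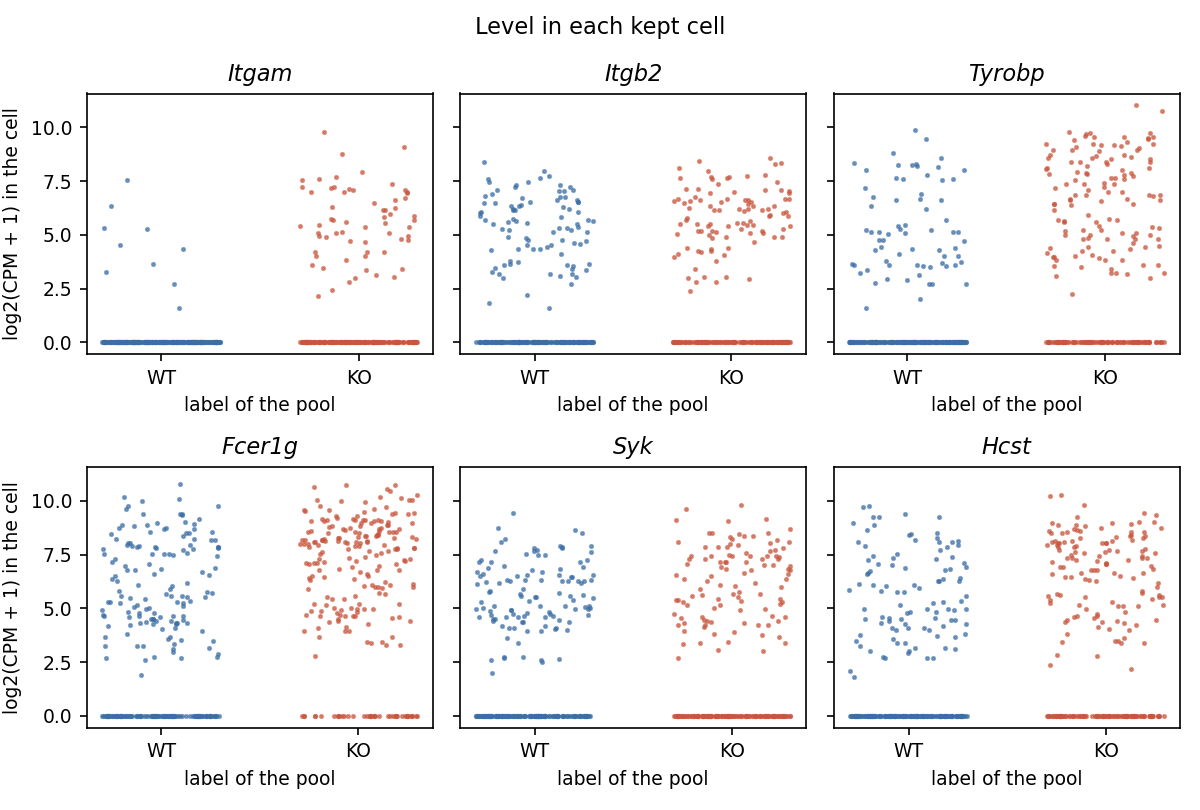
Each point is 1 kept cell, with log2(CPM + 1) of the gene on the vertical axis and the label of the pool on the horizontal axis, spread sideways at random. Itgam has 10 cells above 0 under WT and 64 under KO, while Fcer1g has 143 and 192.

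Detection was read apart from level. In thinned cells a UMI of Itgam remained in 4 of 259 labelled WT (1.54%, exact binomial interval 0.422 to 3.91) and 43 of 234 labelled KO (18.4%, 13.6 to 23.9). Averaged over all possible draws the shares were 1.75% and 18.4%, and with every UMI counted they were 3.86% and 27.4%. The difference was 16.8 percentage points, with an interval from 11.5 to 22.5.

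Tyrobp was detected in 16.6% and 44.0% of thinned cells, in the order WT, KO, a difference of 27.4 percentage points (19.2 to 35.3). Fcer1g was detected in 40.2% and 71.4%, a difference of 31.2 points (22.4 to 39.5). Hcst was detected in 26.6% and 46.6%, a difference of 19.9 points (11.2 to 28.4). These intervals treat cells as the unit and hold no spread between mice or libraries.

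Itgb2 was detected in 24.3% and 33.3%, a difference of 9.01 points (0.731 to 17.2). Syk was detected in 28.2% and 33.8%, a difference of 5.58 points with an interval from -2.86 to 13.98 that includes 0. In thinned cells the level splits into the share of cells with a UMI and the UMIs per such cell. The share was 1.20 times as high under KO for Syk and the UMIs per positive cell 1.52 times as high, which multiply to a thinned level 1.82 times as high. For Itgb2 the share and the UMIs per positive cell were 1.37 and 1.10 times as high (thinned level 1.51), for Fcer1g 1.78 and 1.25 (2.23), for Hcst 1.75 and 1.23 (2.16), for Tyrobp 2.65 and 1.79 (4.74), and for Itgam 11.9 and 2.05 (24.4), the last from 5 thinned UMIs under WT. Thinning weights every cell equally, whereas pooling gives deep cells more weight. The pooled folds were 1.95 for Itgb2, 3.15 for Tyrobp and 12.7 for Itgam, and why they differ from the thinned levels was not tested.

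**Figure D3:**
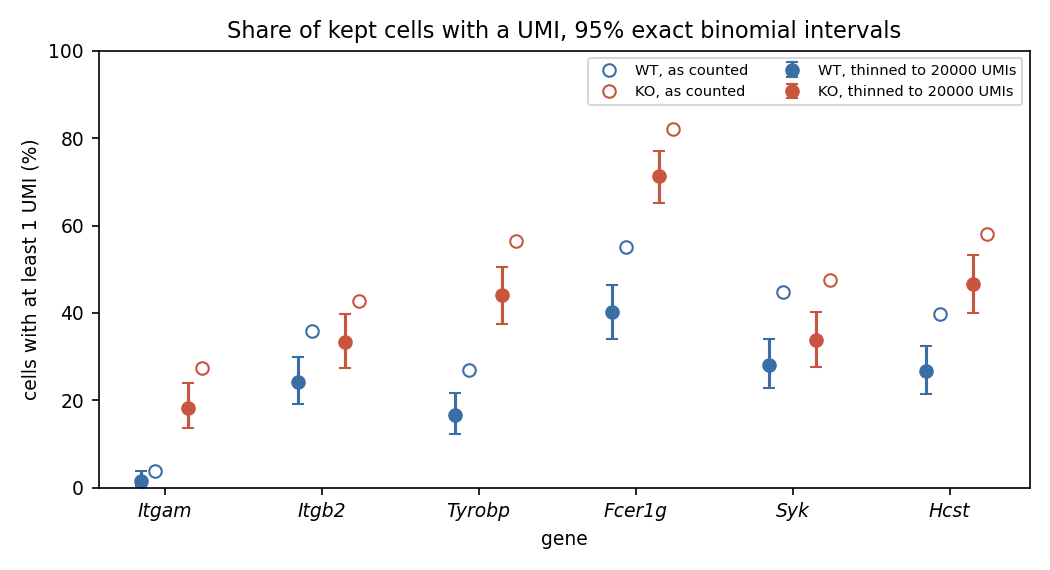
Percent of kept cells with at least 1 UMI. Filled points with 95% exact binomial intervals are after thinning to 20000 UMIs, and open points count every UMI. The intervals of the 2 labels stand apart for Itgam, Tyrobp, Fcer1g and Hcst and overlap for Itgb2 and Syk.

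The shares were also read within 3 bands of sequencing depth that held equal numbers of kept cells, with every UMI counted. In the shallowest band, up to 39030 UMIs, Itgam was found in 2.53% of cells labelled WT and 25.9% of those labelled KO, and in the deepest band, from 79036 UMIs, in 6.86% and 36.5%. Tyrobp, Fcer1g, Hcst and Itgb2 were likewise found more often under KO in each band. Syk was found in 39.2% and 40.0% in the shallowest band, 47.4% and 44.2% in the middle band, and 47.1% and 61.9% in the deepest, so its order was not the same in each. Zp3, an oocyte gene that HSCs should lack, was read beside the 6 genes, and it was detected in 44.0% of thinned cells labelled WT and 8.12% of those labelled KO. All 6 shares under WT lay below that of Zp3, while all 6 under KO lay above it. The Zp3 share itself differed between the labels, so each label was held to an unlike mark. No share is read as expression, or as its absence, on this ground. Where the Zp3 UMIs came from, and whether they gauge the background of myeloid transcripts, was not tested. Without the cells rich in oocyte transcripts, Zp3 was detected in 33.0% of the remaining 200 cells labelled WT, Fcer1g in 44.5% of them and Itgam in 3 cells, while under KO Zp3 was detected in 8.15% and Itgam in 18.0%. The 4 other genes, Itgb2, Tyrobp, Syk and Hcst, stayed below Zp3 under WT, in 50, 34, 58 and 50 of the 200 cells.

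Detection of the genes in the same cell was counted after thinning. Under WT, 59 of 259 cells held none of the 6 genes and 109 (42.1%) held at least 2. Under KO, 10 of 234 cells held none and 179 (76.5%) held at least 2. The median cell held 1 of the genes under WT and 2 under KO. At least 5 of the genes were found in 1 cell labelled WT and 14 cells labelled KO, and no cell held all 6.

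Both chains of Mac-1, Itgam and Itgb2, were found together in 1 cell labelled WT (0.386%, interval 0.00977 to 2.13) and 17 labelled KO (7.26%, 4.29 to 11.4). Of those, 12 cells labelled KO and 0 labelled WT also held Tyrobp or Fcer1g. With every UMI counted, 2 cells labelled WT and 26 labelled KO did, so the 0 is set by the thinning. Syk was found with Tyrobp or Fcer1g, the pair of ITAM adapters, in 11.6% of cells labelled WT and 27.8% of those labelled KO. Tyrobp and Fcer1g were found together in 8.88% and 33.8%. Shares of pairs rise with the shares of the single genes, and what the single shares alone would give was not computed.

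Within the label KO, the shares of a gene in cells with and without another mostly had overlapping intervals. Tyrobp was found in 46.5% of the 43 cells with Itgam and 43.5% of the 191 without, and Fcer1g in 65.1% and 72.8%. Itgb2 was found in 39.5% of cells with Itgam and 31.9% of those without. In level, the log2 ratio of cells with Itgam over those without was 0.85 (0.60 to 1.10) for Tyrobp. It was 0.64 (0.34 to 0.93) for Hcst and 0.63 (0.10 to 1.15) for Itgb2. For Fcer1g it was 0.01 (-0.21 to 0.23) and for Syk -0.25 (-0.73 to 0.20). Of these 5 genes, 0 were at least 2-fold higher or lower, and the intervals cover counting error only. Of the 30 ordered pairs under KO, the intervals of the 2 shares stood apart only for Itgb2 and Hcst, read in both directions. Hcst was found in 60.3% (48.5 to 71.2) of cells with Itgb2 and in 39.7% (32.0 to 47.9) of cells without. Under WT the same shares were 20.6% and 28.6%, and no ordered pair there stood apart. Pearson's r between log2(count + 1) of any pair of the genes lay between -0.08 and 0.11 over 259 cells labelled WT and between -0.05 and 0.16 over 234 labelled KO, which at these counts is no finding.

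**Figure D4:**
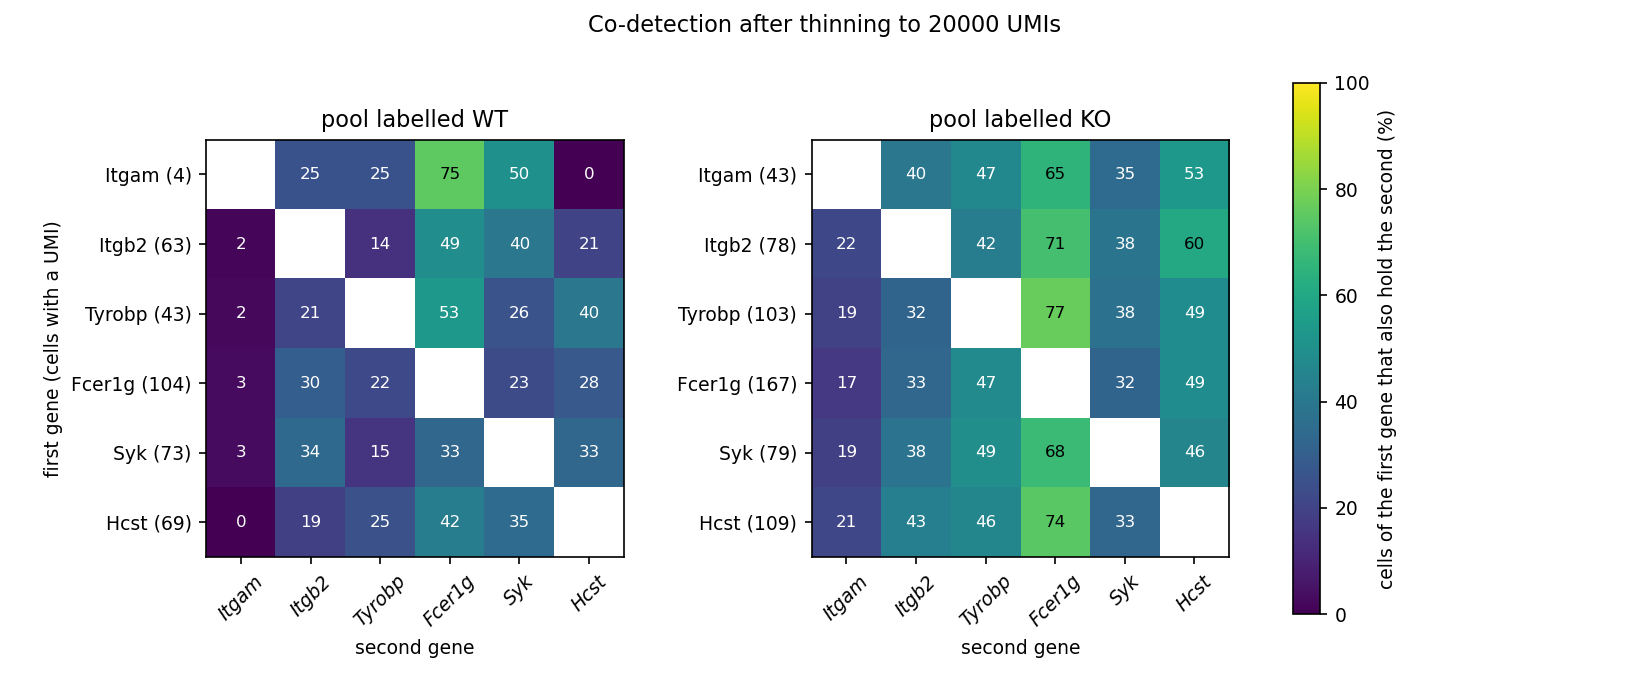
Percent of the cells holding the first gene (row, with the number of such cells) that also hold the second gene (column), after thinning to 20000 UMIs. The columns of Itgam, Itgb2, Tyrobp and Hcst are higher under KO in every row. That of Fcer1g is higher in every row but Itgam, and that of Syk is mixed. The row of Itgam under WT rests on 4 cells.

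The cells labelled KO that held Itgam were set beside those that did not, over genes that did not choose them. The 43 cells with Itgam and the 191 without had medians of 48247 and 50547 UMIs before thinning. Of all genes, 6.24% were at least 2-fold higher in the cells with Itgam and 8.04% lower, with an interval that left out no difference. Of 20 genes used to mark HSCs, 1 was higher (Cd48) and 3 were lower (Tek, Ctnnal1 and Flt3), with a median log2 ratio of -0.07. These rest on few UMIs in the cells with Itgam: Cd48 on 12 in 5 cells, Tek on 5 in 3, Ctnnal1 on 3 in 2 and Flt3 on 9 in 5. The intervals of their shares with and without Itgam overlapped for each. Kit, the stem cell factor receptor, was found in 53.5% of the cells with Itgam and 60.2% of the others, and Ly6a, which encodes Sca-1, in 60.5% and 53.4%. Procr was found in 32.6% (19.1 to 48.5) and 58.6% (51.3 to 65.7), intervals that stand apart. The level of Procr had a log2 ratio of -0.86 (-1.25 to -0.50). Spi1 was found in 90.7% (77.9 to 97.4) and 75.4% (68.7 to 81.3), intervals that overlap. Its level had a log2 ratio of 0.11 (-0.09 to 0.31). Of 14 myeloid transcription factors 2 were higher, Irf5 at 1.58 and Cebpd at 1.04 on the log2 scale, and 1 was lower, Ets1, with 0 and 29 UMIs. For Irf5, Cebpd and Ets1 too, the intervals of the shares of cells overlapped. Of 2 NK and T cell markers 1 was higher, Klrb1c, with 10 and 6 UMIs and a log2 ratio of 2.89 (1.29 to 4.63). Those UMIs lay in only 2 of the cells with Itgam and 4 of the others, and the intervals of these shares overlapped.

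Of the 4 neutrophil markers in the table, 0 were at least 2-fold higher or lower in the cells with Itgam with an interval that left out no difference, and of the 4 monocyte and macrophage markers 1 was lower, C1qa, from 3 and 44 UMIs. The C1qa UMIs lay in 1 of the cells with Itgam and 8 of the others, and the intervals of these shares overlapped. S100a8, a calcium-binding protein of neutrophils, was found in 4.65% of the cells with Itgam and 2.62% of the others, and S100a9 in 0% and 1.57%. Lyz2, the lysozyme of neutrophils and macrophages, was found in 83.7% and 90.6%, and Ms4a6c in 18.6% and 31.9%. Prtn3, a protease of granulocyte precursors, had a log2 ratio of 0.01 (-0.20 to 0.21) between the cells with and without Itgam.

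The pathway around the 6 genes was read from 9 lists of 171 genes, of which 98 were in the table. Of these, 19 were at least 2-fold higher under KO with an interval above 1, beside 6.98% of all genes, and 4 were at least 2-fold lower, beside 7.94%. The median log2 ratio over the 98 was 0.45. The lists were chosen with earlier results of these data known, so these counts describe them and support nothing. Genes of the lists outside the table, among them Itgal, Itgax, Fgr, Klrk1, Trem2, Fcgr3 and Csf1r, were not analysed here.

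The receptors that use the adapters were thinly covered. Of 19 that pair with Tyrobp, 1 was in the table, Plxna1, with 41 and 100 UMIs. Of 19 that pair with Fcer1g or Hcst, 4 were, and all 4 had intervals above 1. Il3ra, the alpha chain of the interleukin 3 receptor, had a log2 ratio of 1.44 (1.18 to 1.71) and Csf2rb, its shared beta chain, 1.27 (1.07 to 1.47). Csf2rb has a close copy, Csf2rb2, and reads may have been split between them. Clec4e and Clec4d, C-type lectins that bind microbial glycolipids, had 0.98 and 0.88, and without the cells rich in oocyte transcripts Clec4e had 1.06 and was at least 2-fold higher.

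In the signal chain after Syk, 6 of 27 genes were at least 2-fold higher and 0 were at least 2-fold lower, with a median log2 ratio of 0.63. Clnk, an adapter of the SLP family, rested on 203 UMIs under WT and 979 under KO, or 2.68 on the log2 scale (2.46 to 2.90). Lat2, a transmembrane adapter of myeloid and B cells, had 476 UMIs under WT and 1406 under KO, or 1.97 on the log2 scale (1.82 to 2.12). Its relative Lat, the adapter of T cells and platelets, went the other way, with 2009 UMIs under WT and 779 under KO, or -0.96 on the log2 scale (-1.08 to -0.84). Gab3 had 1.90, Plcg2, the phospholipase that Syk activates, 1.21, Fyb 1.18 and Vav2 1.04, while Vav1 had 0.63 and Lcp2, which encodes SLP-76, 0.41. Without the cells rich in oocyte transcripts Vav2 had 0.72 and was no longer 2-fold higher, Malt1 had 1.05 in place of 0.64, and Lat had -1.08.

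Among 9 genes for Src family kinases, other tyrosine kinases and the adapter Pag1, 0 were at least 2-fold higher or lower, and the median log2 ratio was 0.29. Lyn, a Src family kinase that acts upstream of Syk, had 658 UMIs under WT and 697 under KO, or 0.49 on the log2 scale (0.34 to 0.65). Fyn had -0.71 and Btk 0.19. Pag1, an adapter that restrains Src kinases, had 0.79 (0.45 to 1.14), and without the cells rich in oocyte transcripts it had 1.24 and was at least 2-fold higher. Of 4 other genes that carry an ITAM or a related motif, 0 were at least 2-fold higher, with Cd79b at 0.64 and Msn at 0.84.

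Of 18 inhibitory receptors and brakes, 5 were at least 2-fold higher. Pecam1, an adhesion receptor with inhibitory motifs, had a log2 ratio of 1.45, Sirpa, the receptor for CD47, 1.12, Dok2 1.08 and Cbl, a ubiquitin ligase that limits Syk signaling, 1.08. Sirpa and Dok2 fell short of 2-fold without the cells rich in oocyte transcripts, at 0.97 and 0.81. The fifth, Pirb, a paired immunoglobulin-like receptor, lay below the level set for naming and was singled out after its values were seen. Its 14 UMIs under WT and 133 under KO gave 3.66 on the log2 scale (2.86 to 4.57), and reads may have been split with its near-identical Pira relatives. The phosphatases Ptpn6, at 0.27, Inpp5d, at 0.09, and Ptpn11, at -0.73, were not 2-fold different.

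Of 12 genes for other integrin chains and for the control of integrin activity, 2 were at least 2-fold higher, Itgb7, with 278 UMIs under WT and 727 under KO, or 1.80 on the log2 scale, and Vcl, at 1.12. Vcl had 0.95 without the cells rich in oocyte transcripts. Tln1, the talin that switches integrins on, had 0.97, and Fermt3, the kindlin of blood cells, -0.05. Fermt2 was the 1 gene at least 2-fold lower, at -5.60 with 1414 and 22 UMIs, and without the cells rich in oocyte transcripts it had 46 and 22 UMIs and -1.03. Of 9 ligands and partners of beta2 integrins, 3 were at least 2-fold lower, of which Icam4 had -1.21, Thy1 -2.85 and Gp1ba -1.08. Thy1 and Gp1ba were named because the count was small, and Gp1ba had -0.82 without the cells rich in oocyte transcripts. Icam1 and Icam2 had 0.09 and 0.58.

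Of 14 myeloid transcription factors, 3 were at least 2-fold higher, namely Irf8, a factor of monocytes and dendritic cells, at 1.48, Cebpd at 1.46 and Klf2, outside the naming rule, at 1.83. Irf8 was detected in 6.18% of thinned cells labelled WT and 26.1% of those labelled KO.

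**Figure D5:**
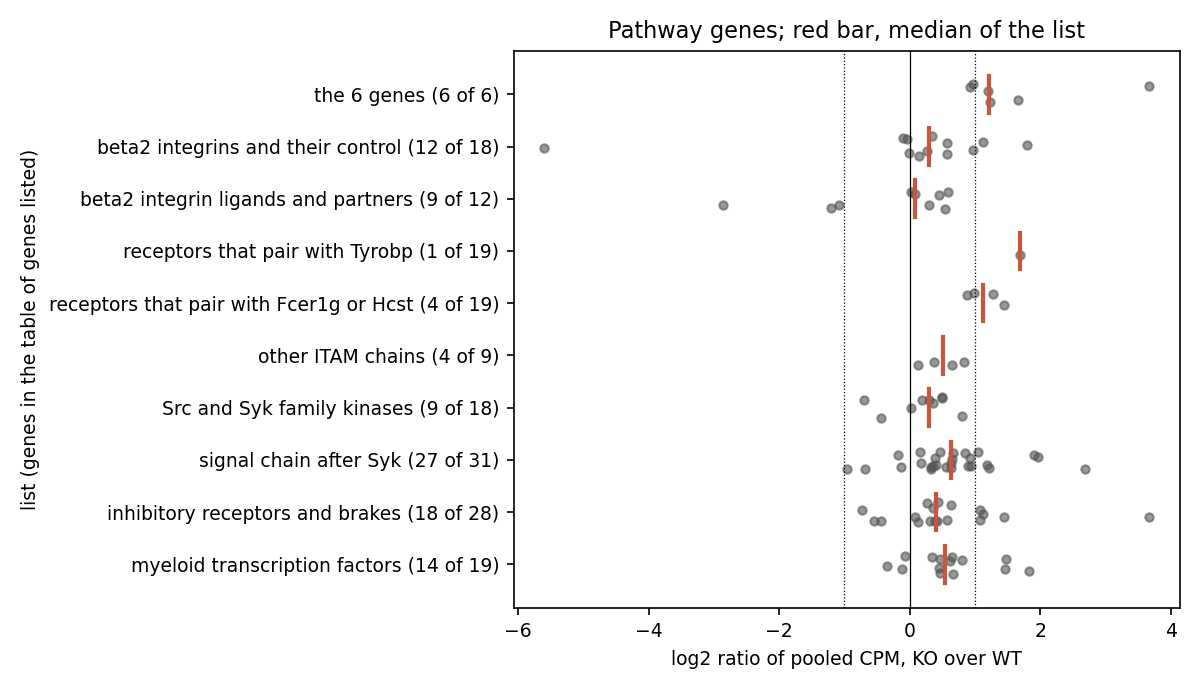
Log2 ratio of pooled CPM, KO over WT, for each gene of each list, with the median of the list as a red bar and dotted lines at 2-fold. The 6 genes have a median of 1.22, and Fermt2, at -5.60, is the point at the far left.

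Markers of other cells that such a sort could hold were read beside the 6 genes. Of 16 neutrophil markers 4 were in the table, with summed levels of 131 CPM under WT and 322 CPM under KO, in which Prtn3 had a log2 ratio of 1.69, Csf3r 0.82, S100a8 -1.09 and S100a9 -0.90. Of 16 monocyte and macrophage markers 4 were in the table, at 358 and 434 CPM, with Lyz2 at 0.19 and Ms4a6c at 0.51. Of 14 NK and T cell markers 2 were in the table, at 175 and 210 CPM, and of 10 mast cell and basophil markers 1, Cpa3, at 9.22 and 21.3 CPM. Of 9 B cell markers 1 was in the table, Cd79b, of 14 megakaryocyte and platelet markers 11, at 1074 and 1173 CPM, of 14 erythroid markers 5, at 1529 and 1178 CPM, and of 10 dendritic cell markers 7, at 1041 and 1331 CPM. Elane, Mpo, Ly6g and Cd3e, which define mature or committed cells, were not analysed here. Of these lists Prtn3, Cpa3, C1qa, Ppbp, Irf7 and Car1 were at least 2-fold higher under KO. At least 2-fold lower were S100a8, 4 of the 11 megakaryocyte and platelet markers (Vwf at -4.47, Treml1 at -2.01, Gp1bb at -1.72 and Gp1ba at -1.08) and 3 of the 5 erythroid markers (Klf1 at -2.04, Epor at -1.63 and Gata1 at -1.49). Without the cells rich in oocyte transcripts S100a8 had -0.79, S100a9 -1.28 and Gp1ba -0.82. Of 20 genes used to mark HSCs, 2 were at least 2-fold higher under KO, Mecom and Flt3, beside 6.98% of all genes. At least 2-fold lower were 2, Slamf1 and Esam, beside 7.94%. Intervals above 1 were held by 7 of the 20 and below 1 by 8, beside 39.2% and 35.7% of all genes. Without the cells rich in oocyte transcripts Flt3 had 0.96, Cd34 0.80, Hlf -0.62 and Ly6a -0.59. The part of any of these markers in the values of the 6 genes was not tested.

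Likeness to the members was measured as the mean of Pearson's r in the 2 labels with the summed log2(count + 1) of Itgam, Tyrobp and Fcer1g, over 9299 genes with at least 0.5 UMI per kept cell. The 5 highest were Tyw5 at 0.17, Gmfg at 0.17, 2310015A10Rik at 0.16, Cd244 at 0.16 and Poglut1 at 0.16. These values are weak in counts this sparse and are no finding.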

How the data were processed

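Single-cell RNA-seq was made from sorted mouse HSCs with barcoded oligo-dT primers. Per the study's methods, the authors aligned reads to the mm9 transcriptome, removed duplicates by UMI, kept 586 cells and kept genes averaging above 0.2 counts. The deposited values were log2 of normalized UMI counts plus 1, as their spacing shows. UMIs were recovered by undoing the log2 and dividing by the smallest value above 0 in each cell, and 100% of values came out whole within 0.01. No column lacked a label, and the columns carry no barcodes, so shared barcodes could not be counted and doublets were not treated.

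The 6 genes, the lists and the comparisons were chosen with earlier results of these data known. Kept cells had at least 2000 genes and 20000 UMIs, and 93 cells were left out. Pooled ratios raised counts under 3 to 3 and took 95% Clopper-Pearson intervals on the split of UMIs. Levels took Poisson intervals, shares exact binomial intervals, and differences of shares combined the exact limits. Thinning drew 20000 UMIs per cell without replacement. Named were the 6 genes, Med23, pathway genes at least 2-fold different with at least 0.5 UMI per kept cell, a fixed set of adjacent genes, marker genes in the table and the 5 genes most alike. With 1 pool per label no test was run. The code was tested on simulated data. Python 3.11.15, numpy 2.4.6, scipy 1.17.1 and pandas 2.3.3 were used. Promoters were RefSeq GRCm38.p6 windows, found for 4 of the 6 genes, and Tyrobp and Itgb2 had none.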

Additional observations from a re-analysis of the deposited data

How the results depend on the processing

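No paired analysis was possible because no library or replicate is named for any cell and no result came from a test. Leaving out each library in turn and the replicate block were not run for the same reason, and a fit with no gene filter was not run because genes with low counts were removed by the authors. Of 66 recomputed member values, 45 stayed within the main counting interval, 21 lay outside it and 0 changed sign. The 21 include, for every member, a difference in the mean over cells of log2(CPM/100 + 1). That is no ratio of pooled levels, so the main interval does not apply to it. With cells thinned before summing, the log2 ratio was 4.61 for Itgam, 0.59 for Itgb2, 2.24 for Tyrobp and 1.16 for Fcer1g. On the mean over cells of log2(CPM/100 + 1), a scale that compresses low counts, the difference was 0.19 for Itgam, 0.11 for Itgb2, 0.55 for Tyrobp, 0.74 for Fcer1g, 0.15 for Syk and 0.39 for Hcst. With the authors' normalized values the log2 ratio was 0.31 for Itgb2, 2.04 for Tyrobp, 1.33 for Fcer1g and 0.56 for Syk. Without the top cell of each pool it was 4.69 for Itgam, 2.08 for Tyrobp and 1.10 for Syk. Without the cells rich in oocyte transcripts it was 1.52 for Tyrobp, 1.07 for Fcer1g and 0.78 for Syk, and with at least 3000 genes and 30000 UMIs it was 1.54 for Tyrobp. Where these values differ from the main ones, the cause was not tested. Median of ratios, upper quartile and TMM scaling shifted all log2 ratios by -0.03, -0.02 and -0.03. The Itgam share differed by 23.5 points without thinning and 8.59 points with at least 2 UMIs required. Of 36 recomputed share differences, 34 stayed within the main interval and 0 changed sign. Without thinning, at least 2 of the genes were found in 66.4% of cells labelled WT and 89.3% of those labelled KO, Syk with an adapter in 28.6% and 43.6%, and Itgam with Itgb2 in 12.4% of those labelled KO. The 4 pathway genes at least 2-fold lower became 2 among genes with at least 0.5 UMI per kept cell, where fewer genes were read. The median of the ligands and partners of beta2 integrins turned from 0.09 to -0.093 with the authors' normalized values, and the cause was not tested. Depth limits Itgam most, since its 40 UMIs labelled WT leave 4 positive cells after thinning.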
